A study of Mus musculus with 12 samples.

Results

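The genes described here were 10 members of the BCL2 family, taken by gene symbol from the count tables of B16F10 mouse melanoma cells, and they were 10 of the 24421 genes in those tables. They were 4 pro-survival genes (Bcl2, Bcl2l1, Bcl2l2 and Mcl1), 2 pore-forming effectors (Bak1 and Bok) and 4 BH3-only genes (Bcl2l11, Bid, Bad and Bmf). B16F10 is an established line derived from a melanoma of a C57BL/6 mouse. The cells were cultured in 4 groups of 3 replicates each: a control with the DMSO vehicle, 5-aza-2′-deoxycytidine (DAC) at 25 nM for 72 h, sulforaphane (SFN) for the last 48 h, and DAC with SFN (DAC+SFN), in which DAC ran for 72 h and SFN at 5 µM for the last 48 h. For SFN given alone the sample labels state a dose of 5 nM and the methods of the study 5 µM, so the dose in the SFN group is uncertain, and this touches SFN against control, DAC+SFN against SFN and the interaction of both agents. Every group was 1 cell line in culture. The methods of the study state that the treatments were repeated 3 times independently. The labels number the replicates of each group 1 to 3 and do not say whether a number marks 1 of these repeats.

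BCL2 family proteins decide whether the outer membrane of the mitochondrion stays closed. Pro-survival members hold the effectors in check, effectors form pores when they are released or activated, and BH3-only members carry stress signals by binding the pro-survival proteins or by activating the effectors. Once the membrane is open, cytochrome c reaches the cytosol, the apoptosome assembles and caspases are activated. Melanocytes and melanoma cells are known for a strong reliance on pro-survival members, with BCL2 a target of the melanocyte factor MITF. DAC is a nucleoside that traps DNA methyltransferases, while SFN, found in broccoli and its relatives, activates the antioxidant factor NRF2. The question addressed here was how the transcripts of this family stood under either agent and under both.

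The 12 libraries held 15880957 to 27291436 counts. A level is given in CPM, the count scaled to the library total and the trimmed mean of M values (TMM), and the 11638 genes that reached 1 CPM in 3 or more libraries were tested, all 10 family genes among them. All 7 melanocyte markers examined (Mitf, Tyr, Tyrp1, Dct, Pmel, Mlana and Sox10) were present at 300.6 CPM or more in every library. Markers of leukocytes, macrophages, endothelium and epithelium were at or near 0, with at most 2 counts for Ptprc, 1 for Cd3e and Epcam, 0 for Adgre1 and Cdh5, and 11 for Pecam1. In a bulk culture, a change in the mix of cell states and a change of transcript level within each cell cannot be told apart.

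Compared with control, 0 of the 10 family genes passed the test with DAC, 2 rose with SFN and 4 rose with DAC+SFN, and 0 fell in any of these comparisons. The test was edgeR's quasi-likelihood test with Benjamini-Hochberg adjustment over all genes tested, and a gene was called at an adjusted p under 0.05. Of all genes tested, 0.180% were called with DAC, 13.9% with SFN (8.27% up) and 31.6% with DAC+SFN (17.0% up). With DAC, 2 family genes had an unadjusted p under 0.05 (Bcl2l1 and Bcl2l2), against 10.1% of all genes, and DESeq2's Wald test also called 0. The genes that rose with SFN were Bcl2 and Bcl2l1, and with DAC+SFN they were Bcl2, Bcl2l1, Bcl2l2 and Bid. The median log2 fold change over the 10 genes was 0.10 with DAC, 0.085 with SFN and 0.15 with DAC+SFN, beside 0.0049, 0.0040 and 0.0078 over all genes. With DAC+SFN, 5 of the 10 genes were higher than control and 5 lower. That median fell in the gap between Mcl1 (-0.00051) and Bid (0.30) and does not stand for a rise of the whole family. With DAC and with SFN, 7 genes were higher and 3 lower. No family gene changed more than 2-fold, a size that 2.66% of all genes exceeded with an adjusted p under 0.05 under DAC+SFN.

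**Figure D1:**
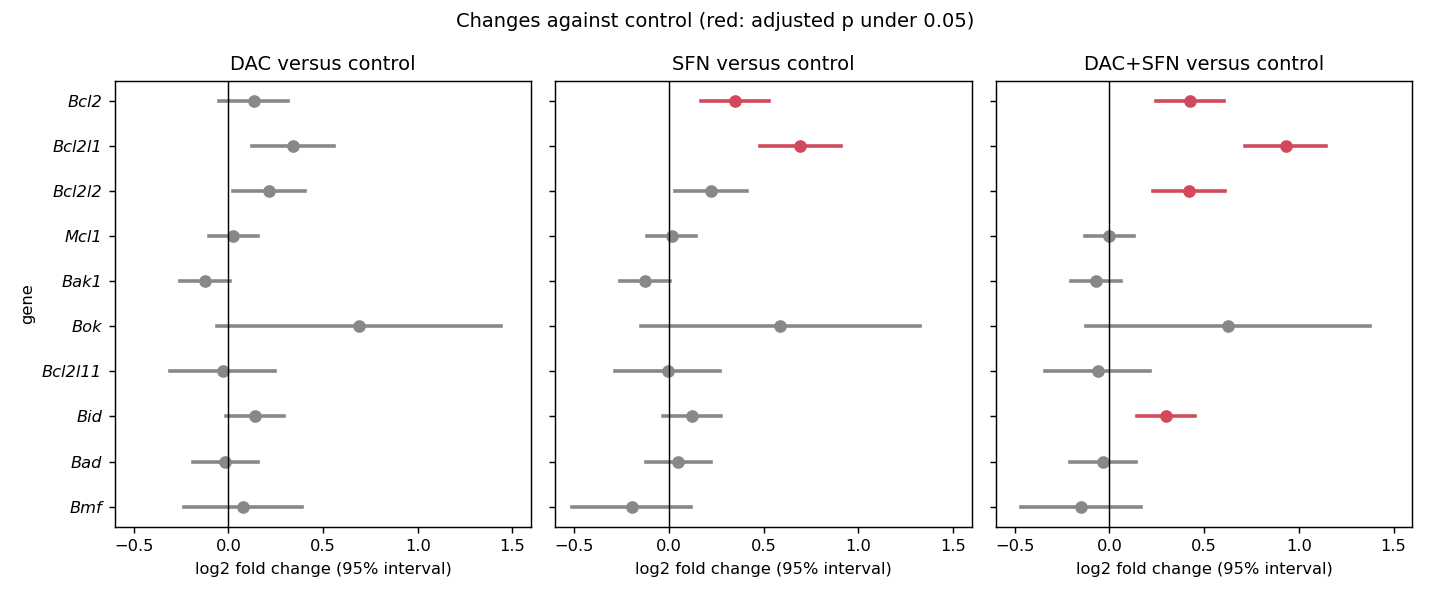
Log2 fold change of each of the 10 genes (rows) against control, in 1 panel for DAC, 1 for SFN and 1 for DAC+SFN; points are estimates from edgeR's model, bars are 95% intervals, and red marks an adjusted p under 0.05. Bcl2l1 lay farthest to the right among the red points with SFN (0.69) and with DAC+SFN (0.93), Mcl1 sat near 0 in all panels, and the bars of Bok, which had at most 43 counts, were the widest.

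The promoter sequence of each of the 4 genes called with DAC+SFN is given here as a description. Of the 10 genes, edgeR's test called 0 with DAC against control and 0 for DAC+SFN against SFN. A link between DNA methylation and the rise of the 4 genes was not tested. RefSeq (GRCm38.p6) held windows of 250 bases upstream of a transcription start for 10 of the 10 genes, 16 windows in all, among 32851 windows genome-wide. For each gene the window with the most CG dinucleotides is given, ended before the first annotated exon base, read 5′ to 3′ on the strand of the gene, with each CG dinucleotide, the site of DNA methylation, in capitals.
Bcl2, chr1:106714291-106714540, minus strand: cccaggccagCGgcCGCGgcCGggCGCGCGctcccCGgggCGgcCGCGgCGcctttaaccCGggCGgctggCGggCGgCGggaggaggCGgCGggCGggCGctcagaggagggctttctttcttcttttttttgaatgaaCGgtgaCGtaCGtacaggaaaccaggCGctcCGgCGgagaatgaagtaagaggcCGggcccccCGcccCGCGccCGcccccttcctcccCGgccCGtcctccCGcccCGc
Bcl2l1, chr2:152831729-152831978, minus strand: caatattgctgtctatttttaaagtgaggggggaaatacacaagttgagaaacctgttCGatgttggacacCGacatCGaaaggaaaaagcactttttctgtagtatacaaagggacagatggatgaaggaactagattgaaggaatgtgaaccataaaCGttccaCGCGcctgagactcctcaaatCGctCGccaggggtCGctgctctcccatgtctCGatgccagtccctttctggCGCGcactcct
Bcl2l2, chr14:54883175-54883376, plus strand: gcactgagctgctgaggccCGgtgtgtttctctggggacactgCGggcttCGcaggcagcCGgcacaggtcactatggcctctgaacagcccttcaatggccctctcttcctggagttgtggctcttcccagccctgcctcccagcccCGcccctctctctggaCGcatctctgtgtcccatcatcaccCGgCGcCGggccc
Bid, chr6:120916854-120917074, minus strand: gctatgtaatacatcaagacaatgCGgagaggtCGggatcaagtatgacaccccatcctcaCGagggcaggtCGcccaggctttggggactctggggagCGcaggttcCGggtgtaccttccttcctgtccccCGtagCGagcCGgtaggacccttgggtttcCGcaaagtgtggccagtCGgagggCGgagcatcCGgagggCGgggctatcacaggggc

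The Bcl2 stretch held 36 CG dinucleotides, the Bcl2l1 stretch 12, the Bcl2l2 stretch 9 and the Bid stretch 14, while the median window of the genome held 6. The 2 are not like for like. The stretches came from the window richest in CG of each gene, and those of Bcl2l2 and Bid were cut to 202 and 221 bases. The median is over all windows at their full 250 bases. The full windows of the 4 called genes, 6 in number, spanned 0 to 36 CG dinucleotides, and the 10 windows of the other family genes spanned 3 to 30, so the 2 sets overlapped. The window at the innermost start of Bcl2l1 had no CG at all, whereas that of Mcl1, which did not pass the test, had 26. Methylation itself was not measured in these libraries. On both strands, the antioxidant response element core TGACNNNGC, to which NRF2 binds, was found in 1 of the 16 windows (the innermost Bcl2l1 start, 127 bases upstream) and in 10.16% of all windows. The FOXO motif GTAAACA was found in 1 window (Bcl2l11, 227 bases upstream) and in 3.17% of all windows, and the E-box CACGTG in 0 and in 6.02%. A match of this kind is a description of the letters in the window and not of a bound site.

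Bcl2l1 encodes BCL-xL, the pro-survival protein that sequesters BAK and several BH3-only proteins. The gene lies on chromosome 2 (152780668 to 152831728, minus strand, GENCODE on GRCm38). Its level in the 3 control libraries was 53.2, 76.5 and 59.0 CPM for replicates 1 to 3. It was 65.1, 105 and 71.1 CPM with DAC, 87.7, 139.7 and 82.4 CPM with SFN, and 120.5, 158.7 and 85.1 CPM with DAC+SFN. All SFN and all DAC+SFN libraries were above the highest control library, while the DAC libraries overlapped the control, and replicate 2 was the highest in each group. Bcl2l1 rose 1.62-fold with SFN (95% interval 1.39 to 1.87, log2 0.69 ± 0.10 SE, adjusted p = 0.000394). With DAC+SFN it rose 1.91-fold (95% interval 1.64 to 2.21, log2 0.93 ± 0.10 SE, adjusted p = 1.5e-05), by 1.18, 1.05 and 0.53 on the log2 scale in replicates 1, 2 and 3.

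DAC alone gave Bcl2l1 a log2 fold change of 0.34 ± 0.10 SE (unadjusted p = 0.00411, adjusted p = 0.215), with all 3 replicates on the positive side (0.29, 0.46 and 0.27). Adding SFN to DAC raised Bcl2l1 by a further 0.59 on the log2 scale (adjusted p = 0.00142, and 0.0817 with the replicate 1 libraries of all groups left out), and adding DAC to SFN gave 0.24 (adjusted p = 0.213, 95% interval 0.030 to 0.45). Leaving out replicate 3 of DAC+SFN, the lowest of its group, brought the last difference to 0.37 (adjusted p = 0.0131) and the adjusted p of DAC against control to 0.0312. Over all fits with 1 library left out, DAC+SFN against SFN ranged from 0.10 to 0.37 (adjusted p of at most 0.695). DAC against control ranged from 0.27 to 0.45 (adjusted p of at most 0.940) in the same fits. The increase with DAC+SFN against control kept its call in every alternative fit that was run, at an adjusted p under 0.05, with log2 fold changes of 0.80 to 1.11 and adjusted p of at most 0.0421, whereas without the replicate number as a term the increase with SFN was not called (0.72, adjusted p = 0.236).

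Bcl2, on chromosome 1 (106538178 to 106714274, minus strand), encodes the founding pro-survival protein of the family. Control libraries held 27.8, 36.5 and 28.8 CPM and DAC libraries 33.8, 41.0 and 27.9 CPM. SFN libraries held 38.5, 46.3 and 34.0 CPM and DAC+SFN libraries 43.3, 43.1 and 37.9 CPM. The DAC+SFN libraries all lay above the control range, while the SFN and the DAC libraries overlapped it. Bcl2 rose with SFN (log2 0.35 ± 0.084 SE, adjusted p = 0.0124) and with DAC+SFN (0.43 ± 0.084 SE, adjusted p = 0.00169), in 3 of 3 replicates each, and not past the threshold with DAC (0.13, adjusted p = 0.644).

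The Bcl2 call with SFN ended without control replicate 1 (0.27, adjusted p = 0.0988), without SFN replicate 2 (0.32, adjusted p = 0.0814) and without the replicate term (0.35, adjusted p = 0.310). The SFN call also ended with all replicate 1 or all replicate 2 libraries left out (0.29 and 0.35, adjusted p = 0.138 and 0.0973). The call with DAC+SFN held with any 1 library left out, and it ended without the replicate term (0.42, adjusted p = 0.103) and with all replicate 1 libraries left out (0.32, adjusted p = 0.0705). Against DAC, DAC+SFN was higher by 0.29 (adjusted p = 0.0290), a call that ended without DAC replicate 1, DAC replicate 3, DAC+SFN replicate 1 or DAC+SFN replicate 3 (0.23 to 0.31, adjusted p of 0.0634 to 0.165). The call against DAC also ended with all replicate 1 or all replicate 3 libraries left out (0.26 and 0.21, adjusted p = 0.225 and 0.131).

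Bcl2l2, on chromosome 14 (54883377 to 54888234, plus strand), encodes the pro-survival protein BCL-w. Its level was 27.1, 23.5 and 28.7 CPM in control, 30.1, 29.3 and 32.4 CPM with DAC, and 31.7, 30.6 and 29.9 CPM with SFN. With DAC+SFN it was 37.3, 36.7 and 31.7 CPM. Every treated library exceeded every control library, and replicate 3 of DAC+SFN lay within the DAC and SFN ranges. Bcl2l2 rose with DAC+SFN (log2 0.42 ± 0.089 SE, adjusted p = 0.00267), a call that ended with all replicate 1 or all replicate 2 libraries left out (adjusted p = 0.0619 and 0.0873). The values with DAC (0.22 ± 0.089 SE, adjusted p = 0.422) and with SFN (0.22 ± 0.089 SE, adjusted p = 0.113) were close to each other and did not pass the test.

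Mcl1 encodes a short-lived pro-survival protein and gave the flattest pattern of the family. Its level spanned 183.5 to 205.5 CPM in control, 198.7 to 204.4 CPM with DAC, 192.9 to 209.9 CPM with SFN and 189.5 to 208.2 CPM with DAC+SFN. The 4 ranges overlapped. The log2 fold change with DAC+SFN was -0.00051 ± 0.061 SE (adjusted p = 0.997), with a 95% interval from -0.13 to 0.13, and the values with DAC and SFN were 0.027 and 0.014.

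**Figure D2:**
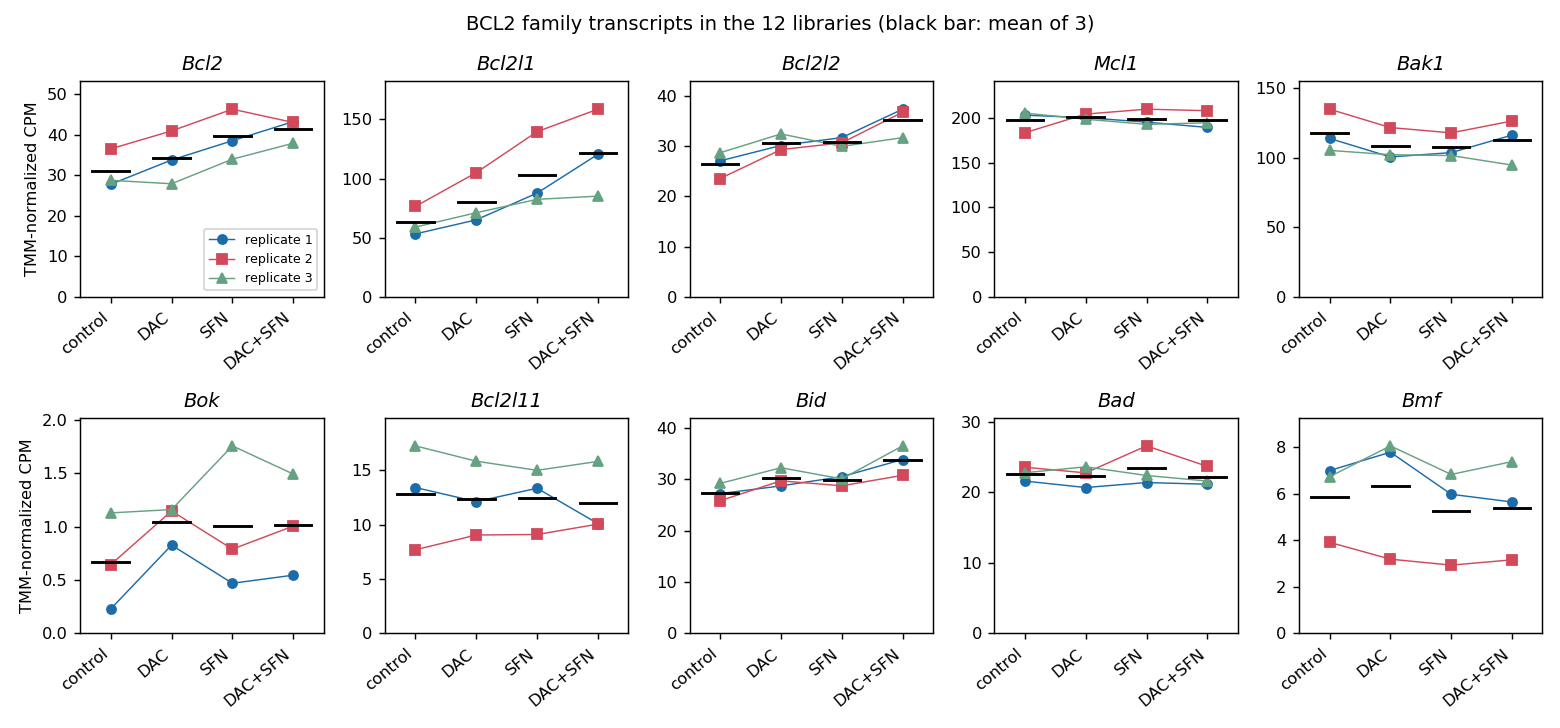
TMM-normalized CPM of the 10 genes in each of the 12 libraries, 1 panel a gene with the vertical axis starting at 0; symbols and connecting lines show libraries with the same replicate number, and black bars are the means of 3 libraries. Bcl2l1 ran from 53.2 CPM in control replicate 1 to 158.7 CPM in DAC+SFN replicate 2, and replicate 2 was the lowest of each group for Bcl2l11 and Bmf.

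Bak1 encodes BAK, an effector that sits in the mitochondrial outer membrane. It was at 118 ± 15.3 CPM in control, 108 ± 11.8 CPM with DAC, 107.5 ± 8.88 CPM with SFN and 112 ± 16.2 CPM with DAC+SFN (SD, n = 3). The ranges overlapped in all 4 groups. Bak1 was not called in any comparison, with log2 fold changes of -0.12 (DAC, adjusted p = 0.541), -0.13 (SFN, adjusted p = 0.189) and -0.070 (DAC+SFN, adjusted p = 0.420). The value with DAC+SFN differed from the sum of both single treatments by 0.18 (adjusted p = 0.860), where the dose of SFN alone is uncertain.

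Bok, an effector related to BAX and BAK, was barely detected, at 5 to 43 counts a library. Its control libraries held 5, 15 and 22 counts and its DAC+SFN libraries 12, 21 and 32 counts. The log2 fold changes were 0.69 ± 0.35 SE with DAC, 0.59 ± 0.34 SE with SFN and 0.63 ± 0.35 SE with DAC+SFN, with adjusted p of 0.542, 0.280 and 0.190. With 1 library left out they ranged from 0.43 to 1.16, from 0.26 to 0.80 and from 0.45 to 0.84 in the same order. At these counts the 95% interval for DAC+SFN ran from a fold of 0.918 to 2.60, which holds both no change and a change of 2-fold.

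Bid was the 1 BH3-only gene called. It encodes a protein that is cleaved by caspase-8 and links death receptors to the mitochondrion, and it lies on chromosome 6 (120891930 to 120916853, minus strand). Its level was 27.2, 25.8 and 29.2 CPM in control, 28.7, 29.7 and 32.2 CPM with DAC, 30.5, 28.7 and 30.1 CPM with SFN, and 33.8, 30.7 and 36.5 CPM with DAC+SFN. All DAC+SFN libraries were above all control and all SFN libraries, and they overlapped the DAC libraries. Bid rose 1.23-fold with DAC+SFN (95% interval 1.11 to 1.37, log2 0.30 ± 0.072 SE, adjusted p = 0.00600), by 0.31, 0.25 and 0.32 in replicates 1, 2 and 3. With DAC (0.14, adjusted p = 0.548) and with SFN (0.12, adjusted p = 0.287) it did not pass the test. The call with DAC+SFN ended with all replicate 1 or all replicate 2 libraries left out (adjusted p = 0.0702 and 0.0505).

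Bcl2l11 encodes BIM, a BH3-only activator that binds all pro-survival members. Its 3 control libraries were at 13.4, 7.70 and 17.3 CPM and its 3 DAC+SFN libraries at 10.1, 10.1 and 15.8 CPM, with replicate 3 the highest in every group. Its log2 fold changes were -0.030 with DAC, -0.0066 with SFN and -0.063 with DAC+SFN (adjusted p = 0.748), and the 95% interval of the last ran from -0.34 to 0.22. Bmf, which encodes a BH3-only protein tied to the cytoskeleton, was at 6.99, 3.92 and 6.73 CPM in control and 5.65, 3.16 and 7.38 CPM with DAC+SFN. Its log2 fold changes were 0.076 with DAC, -0.20 with SFN (adjusted p = 0.414) and -0.15 with DAC+SFN (adjusted p = 0.468). Bad, whose product binds BCL2, BCL-xL and BCL-w and is held inactive by phosphorylation, ranged from 20.7 to 26.6 CPM over all 12 libraries. The log2 fold change of Bad with DAC+SFN was -0.033 ± 0.081 SE (adjusted p = 0.792), and it was -0.016 with DAC and 0.048 with SFN. The groups overlapped for all 3 of these genes.

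With DAC+SFN, 4 of the 10 genes had all 3 libraries above the control range, and 15.1% of all genes tested did. These were the 4 genes called. With SFN they were 2 genes, Bcl2l1 and Bcl2l2 (10.9% of all genes), and with DAC the 1 gene Bcl2l2 (4.09%). The 3 comparisons share the control libraries, so the values above stand side by side and are not independent of each other.

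Between DAC+SFN and DAC, the effect of adding SFN, 2 of the 10 genes were called and both were higher (Bcl2 and Bcl2l1), beside 16.1% of all genes in either direction and 9.55% up. Of the others, Bcl2l2 (0.20, adjusted p = 0.132) and Bid (0.16, adjusted p = 0.150) had an unadjusted p under 0.05, so 4 family genes did in all, against 30.5% of all genes. Without replicate 3 of DAC+SFN, Bcl2l2 was called (0.29, adjusted p = 0.0232) and Bcl2 was not (adjusted p = 0.0634), and without the replicate term neither Bcl2 nor Bcl2l1 was (adjusted p = 0.381 and 0.276). Between DAC+SFN and SFN, edgeR's test called 0 of the 10 genes, beside 1.61% of all genes. An unadjusted p under 0.05 was found for 3 of them (Bcl2l1 0.24, Bcl2l2 0.20 and Bid 0.18), against 17.8% of all genes, and DESeq2's Wald test called 0.

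The interaction term, which asks whether the log2 fold change of DAC+SFN differed from the sum of those of DAC and SFN, was called by edgeR for 0 of the 10 genes and 0 of all 11638. No family gene had an unadjusted p under 0.05, whereas 683 of all genes (5.87%) did, and DESeq2 called 0 genes of either set. For Bcl2l1 the difference from the sum was -0.10, with a 95% interval from -0.40 to 0.20, and for Bcl2 it was -0.059 (-0.31 to 0.19). For Bcl2l2 it was -0.019 (-0.29 to 0.25) and for Bid 0.037 (-0.18 to 0.25). Since the dose of SFN given alone is uncertain, the sum may not be that of the doses combined in DAC+SFN. A departure from additivity smaller than these intervals was not detectable.

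Part of the spread within groups followed the replicate number. Between replicate numbers, Bcl2l1 was 0.57 higher in replicate 2 than in replicate 1 on the log2 scale (adjusted p = 9.3e-05 for any difference among the 3 numbers), nearly as large as its change with SFN. Bmf was lower by 0.99 in replicate 2 than in replicate 1, and Bcl2l11 by 0.45 (adjusted p = 4.88e-05 and 0.000293). Bcl2 (adjusted p = 0.00331), Bak1 (adjusted p = 0.00166) and Bok (adjusted p = 0.00666) also differed by replicate number, whereas Bcl2l2, Mcl1, Bid and Bad did not pass that test. In all, 3951 of the 11638 genes did, and the labels do not say what the number marks.

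Levels of different genes were compared per kb of annotated exon. In control, Mcl1 was at 57.8 ± 3.53 CPM per kb and Bak1 at 49.0 ± 6.34 (SD, n = 3), and these leading genes overlapped. Bcl2l1 followed at 13.7 CPM per kb, Bad at 8.86, Bid at 7.72, Bcl2l2 at 5.92 and Bcl2 at 3.39, each with a library range apart from its neighbours. Bcl2l11 (1.59 CPM per kb) and Bmf (1.12) overlapped, and Bok came last at 0.363. With DAC+SFN, Bcl2l1 stood at 26.5 ± 8.02 CPM per kb and was still below Bak1 at 46.7 ± 6.72 in library range, while Bid (9.49 ± 0.807) had moved past Bad (8.67 ± 0.529) in mean with overlapping ranges.

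**Figure D3:**
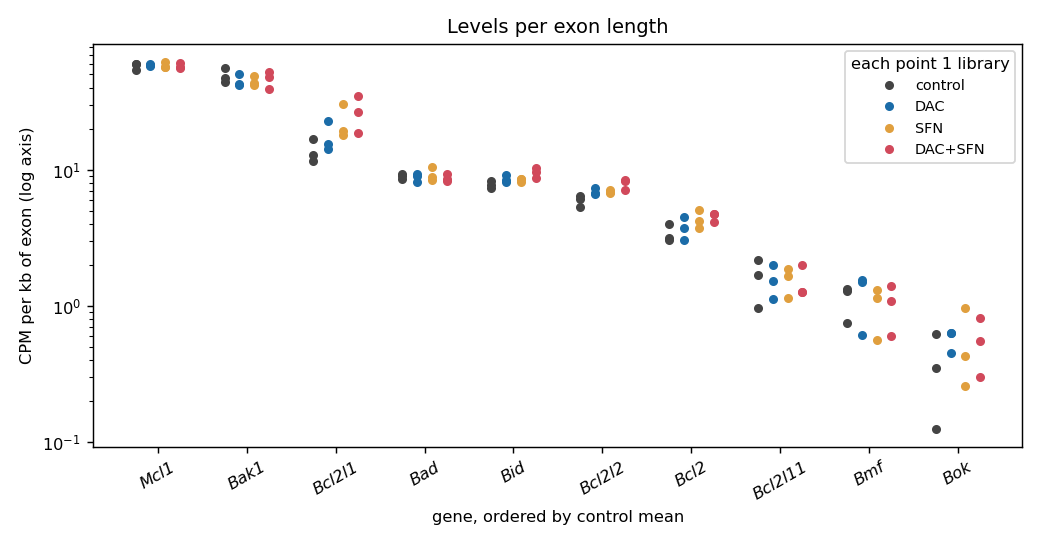
CPM per kb of exon (log axis) for the 10 genes in order of their control mean, with 1 point for each library and colours for the 4 groups. Mcl1 and Bak1 stood above all others, and Bcl2l1 was the gene whose points climbed most from control (11.6 to 16.7 CPM per kb) to DAC+SFN (18.6 to 34.6).

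Among the 4 pro-survival transcripts the share of Bcl2l1 followed its own rise, while the level of Mcl1 stayed at 57.8 CPM per kb in control and with DAC+SFN and the sum of the 4 went from 80.8 ± 1.55 to 96.7 ± 10.9 CPM per kb (SD, n = 3). Of their summed level per kb, Bcl2l1 made up 17.0% ± 3.46 in control libraries, 20.0% ± 3.92 under DAC, 24.1% ± 4.54 under SFN and 27.0% ± 5.29 under DAC+SFN (SD, n = 3). Mcl1 made up 71.5% ± 3.57, 67.8% ± 3.54, 63.7% ± 3.94 and 60.1% ± 4.95 in the same order. The library ranges of the Bcl2l1 share did not overlap between control (14.5% to 20.9%) and DAC+SFN (21.4% to 31.9%). The ratio of Bcl2l1 to Bak1 per kb was 0.279 ± 0.0293 in control and 0.559 ± 0.0944 with DAC+SFN. These shares are descriptions of transcript levels, computed without a test, and protein was not measured in these libraries.

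The annotation limits some of these counts. Exons of Bad shared 524 bases (20.5% of its exon length) with Gpr137 on the other strand, which itself rose with DAC+SFN (0.39, adjusted p = 0.0147). Exons of Bid shared 628 bases (17.7%) with Bcl2l13 on the other strand, at 2370 to 3765 counts a library and a log2 fold change of -0.084 with DAC+SFN (adjusted p = 0.245). Bak1 shared 25.5% with Ggnbp1 on the other strand, at 5 to 20 counts, and Bcl2l2 shared 594 bases (13.3%) with Gm20521 on its own strand, which was not analysed here. The library kit keeps strand, but whether the counting used it is not given in the sources used here, so the part of these neighbours in the counts was not tested.

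The 3 genes whose log2 CPM followed Bcl2l1 most closely over the 12 libraries were Mdm2 (Pearson r = 0.987), Ccnd1 (0.987) and Sipa1l1 (0.987). Mdm2 encodes the ubiquitin ligase of p53 and is itself a p53 target, Ccnd1 encodes cyclin D1, and Sipa1l1 a GTPase-activating protein of the Rap family. With SFN their log2 fold changes were 0.77, 1.27 and 0.33, and with DAC+SFN 1.03, 1.61 and 0.49. The 12 libraries share treatments and replicate numbers, and Bcl2l1 differed by both, so r is a description with n = 12.

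Beyond the 10 genes, 15 other BCL2 family genes were listed, of which 6 were tested, and with DAC+SFN 1 rose and 1 fell, beside 31.6% of all genes called. Bax, the effector partner of Bak1, rose 0.29 with DAC+SFN (adjusted p = 0.0145) and 0.33 with SFN (adjusted p = 0.0148). Its libraries held 138.9, 177 and 162.5 CPM in control, 191, 221 and 187 CPM with SFN and 193, 232 and 161 CPM with DAC+SFN, so DAC+SFN overlapped the control. The DAC+SFN call of Bax ended without control replicate 1 or 2, or DAC+SFN replicate 1 or 2 (0.22 to 0.27, adjusted p of 0.0652 to 0.0969), and its SFN call without control replicate 1 or 2 or SFN replicate 1 (0.27 to 0.31, adjusted p of 0.0747 to 0.102). Both also ended without the replicate term (adjusted p = 0.190 with DAC+SFN and 0.300 with SFN).

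Bnip3l, which encodes the mitophagy receptor NIX, fell by 0.61 on the log2 scale with DAC+SFN (adjusted p = 0.00322) and by 0.51 with SFN (adjusted p = 0.0181). Its libraries held 147.5, 77.3 and 155 CPM in control and 72.8, 73.8 and 93.9 CPM with DAC+SFN, so control replicate 2 lay within the treated range. The SFN call ended without control replicate 1 or 3 or SFN replicate 1 or 3 (-0.52 to -0.41, adjusted p of 0.0633 to 0.114) and with DESeq2's Wald test (adjusted p = 0.0510), and without the replicate term neither call remained (adjusted p = 0.128 with DAC+SFN and 0.354 with SFN). Bnip3, its paralog, had a log2 fold change of -1.07 ± 0.41 SE with DAC+SFN (adjusted p = 0.0608), but the replicates differed in sign, with 248, 30.5 and 272 CPM in control and 44.6, 58.3 and 90.7 CPM with DAC+SFN. Without control replicate 2, DAC replicate 2 or DAC+SFN replicate 2 it was called (-1.58, -1.13 and -1.77, adjusted p = 0.00733, 0.0493 and 0.00133), as it was without the low-count filter, with the newer edgeR fit and with only the groups compared (adjusted p = 0.000621, 0.0491 and 0.0474).

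Bbc3, which encodes the p53-inducible BH3-only protein PUMA, had 0.32 ± 0.23 SE with DAC+SFN (adjusted p = 0.319), and without DAC+SFN replicate 3 it was called (0.62, adjusted p = 0.0215). Bcl2l12 had -0.33 (adjusted p = 0.0759, and 0.0492 without SFN replicate 1) and Bcl2l13 -0.084 (adjusted p = 0.245). Pmaip1, which encodes the BH3-only protein NOXA, and Bcl2a1a, Bcl2a1b and Bcl2a1d were listed at 0 in all 12 libraries, where 3 counts would correspond to 0.11 to 0.189 CPM. The Bcl2a1 genes are near-identical copies and the counting kept uniquely aligned reads, so their level is uncertain. Bcl2l10, Bcl2l14, Bcl2l15, Bik and Hrk never exceeded 7 counts and were not tested.

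Of the caspases, the proteases that carry out apoptosis, 3 of the 5 genes examined fell with DAC+SFN and 0 rose, beside 14.7% of all genes that fell. Casp2, an initiator caspase, was at 92.7, 85.4 and 81.6 CPM in control and 59.7, 60.4 and 73.9 CPM with DAC+SFN and fell by 0.43 on the log2 scale (adjusted p = 0.000991). Casp6, an executioner caspase, was at 22.3, 16.4 and 19.8 CPM in control and 9.15, 11.8 and 15.3 CPM with DAC+SFN and fell by 0.69 (adjusted p = 0.00188). For both genes all DAC+SFN libraries lay below all control libraries. The initiator Casp9 fell by 0.39 (adjusted p = 0.00408), and without the replicate term it was not called (adjusted p = 0.0892). With all replicate 1 libraries left out, neither Casp2 nor Casp9 was called with DAC+SFN (adjusted p = 0.0539 and 0.0844). With SFN 2 caspases fell, beside 5.65% of all genes, Casp2 (-0.37, adjusted p = 0.00604) and Casp9 (-0.33, adjusted p = 0.0196). Both SFN calls ended without control replicate 1 (adjusted p = 0.0550 and 0.0909) and without the replicate term (adjusted p = 0.0997 and 0.287), and that of Casp9 also without control replicate 2 or SFN replicate 2 or 3 (adjusted p of 0.0616 to 0.123). With DAC edgeR's test called 0 of the 5, and 0 had an unadjusted p under 0.05.

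Of the 6 genes of the apoptosome and the factors released with cytochrome c, 1 rose and 1 fell with DAC+SFN, near the 31.6% of all genes called. Apaf1, the scaffold of the apoptosome, rose by 0.21 (adjusted p = 0.00958), from 113, 108 and 114 CPM in control to 133, 129 and 126 CPM, and lost the call without control replicate 2 or DAC+SFN replicate 1 (adjusted p = 0.0688 and 0.0516). Aifm1, which encodes the flavoprotein AIF, fell by 0.19 (adjusted p = 0.0249), and lost the call without control replicate 1 or 2 or DAC+SFN replicate 1 or 2 (adjusted p of 0.0674 to 0.0954). Among the inhibitor of apoptosis genes, 5 of 9 were tested and 1 rose with DAC+SFN, Birc6 (0.21, adjusted p = 0.0185), a call lost without control replicate 1 or 3 or DAC+SFN replicate 1 (adjusted p of 0.0602 to 0.111), and 1 of 5 is near the 17.0% of all genes that rose. The calls of Aifm1 and Birc6 also ended without the replicate term (adjusted p = 0.0978 and 0.0862), and those of Aifm1, Birc6 and Apaf1 with only the groups compared (adjusted p = 0.0867, 0.0790 and 0.0597).

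The death receptor list held 11 genes, of which 7 were tested, 3 rose and 1 fell with DAC+SFN, beside 17.0% and 14.7% of all genes. Tnfrsf10b, the mouse receptor for TRAIL, was at 26.8, 35.5 and 23.4 CPM in control, 32.1, 48.2 and 31.8 CPM with DAC, 43.4, 58.0 and 38.2 CPM with SFN and 60.1, 66.6 and 47.5 CPM with DAC+SFN. It rose by 0.70 with SFN (adjusted p = 5.0e-05) and by 1.03 with DAC+SFN (adjusted p = 1.3e-06), and its SFN and DAC+SFN libraries were all above control. Without the replicate term its SFN call ended (0.70, adjusted p = 0.160). Cflar, which encodes the caspase-8 inhibitor c-FLIP, rose by 0.46 (adjusted p = 0.000467) and the receptor gene Tnfrsf1a by 0.34 (adjusted p = 0.00240) with DAC+SFN. The call of Tnfrsf1a ended without the replicate term (0.35, adjusted p = 0.0538) and with all replicate 1 or all replicate 2 libraries left out (adjusted p = 0.0681 and 0.0612). Fadd, the adaptor between receptor and caspase-8, fell by 0.30 (adjusted p = 0.0125), a call that ended without control replicate 2 (-0.25, adjusted p = 0.0780).

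Of 12 regulators of BCL2 family transcription and turnover, 4 rose and 1 fell with DAC+SFN, all by less than 0.30 on the log2 scale, beside 17.0% and 14.7% of all genes. Usp9x, a deubiquitinase of MCL1, rose by 0.19 (adjusted p = 0.0128), Fbxw7, a ubiquitin ligase component for MCL1, by 0.24 (adjusted p = 0.0209) and the transcription factor Foxo1 by 0.27 (adjusted p = 0.0202). Dynll1, a dynein light chain that binds BIM, fell by 0.19 (adjusted p = 0.0161). All 4 of these calls ended without control replicate 1, those of Usp9x, Foxo1 and Dynll1 also without control replicate 2 and that of Fbxw7 without control replicate 3. They further ended without DAC+SFN replicate 1 (Foxo1 and Dynll1) or replicate 3 (Usp9x, Fbxw7 and Foxo1), with adjusted p of 0.0544 to 0.117 over these fits. Without the replicate term the calls of Usp9x, Fbxw7, Foxo1 and Dynll1 ended as well (adjusted p = 0.156, 0.115, 0.0501 and 0.0948), with only the groups compared they did too (adjusted p of 0.0720 to 0.0964), and without the low-count filter those of Foxo1 and Fbxw7 did (adjusted p = 0.0556 and 0.0557). Dynll2, the paralog of Dynll1, named after its value was seen, rose by 0.17 (adjusted p = 0.0350), and of the 12 libraries, leaving out any 1 of control replicates 1 and 2, the 3 SFN libraries and DAC+SFN replicates 1 and 2 ended its call (adjusted p of 0.0507 to 0.174). Mitf and Trp53, the factors upstream of Bcl2 and of several BH3-only genes, were not called in any of the comparisons with control.

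**Figure D4:**
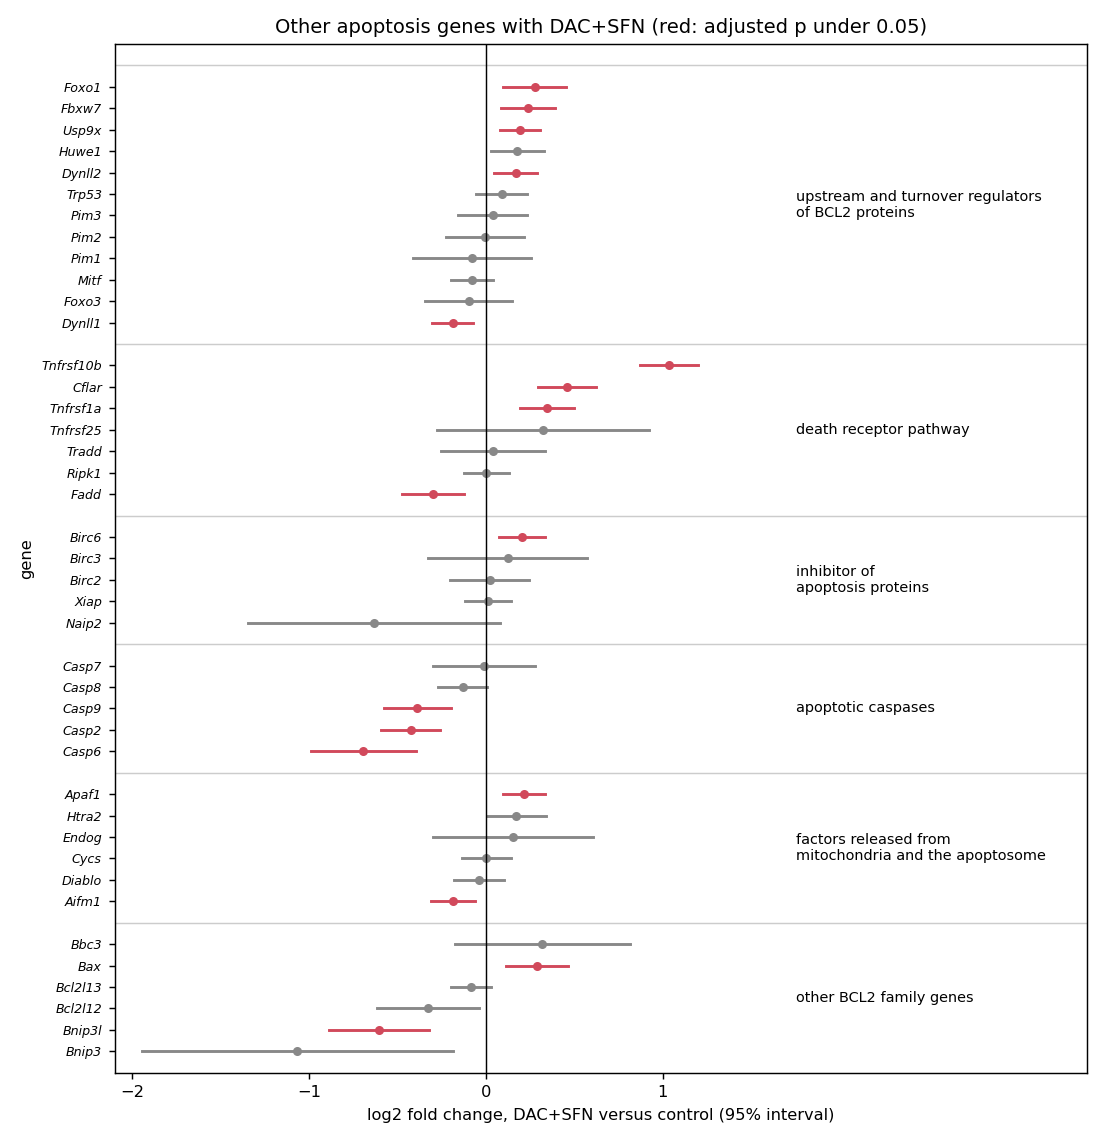
Log2 fold change of DAC+SFN against control (horizontal axis, points with 95% intervals) for the tested genes of 6 apoptosis lists, red where the adjusted p was under 0.05. Tnfrsf10b lay farthest to the right at 1.03, 3 of the 5 caspases were red on the left, and the wide bar of Bnip3 reflected replicates of opposite sign.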

How the data were processed

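Total RNA of B16F10 cells was sequenced as stranded poly(A) libraries with single-end reads. The values the authors deposited are raw counts per gene and library, with no normalization. Submitters' processing notes name FastQC 0.11.7, Trimmomatic 0.38, TopHat2 2.1.1, HTSeq and mm10, and the study counted uniquely aligned reads. The annotation and strand setting of the counting are not given in the sources used here.

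Samples were grouped by their treatment label. The 11638 of 24421 genes that reached 1 CPM in 3 or more libraries were fitted with edgeR 4.0.16 in R 4.3.3 (quasi-likelihood, TMM factors 0.974 to 1.03), all 12 libraries together, with the replicate number as a blocking term that stands for the batch that the study corrected for. P-values were Benjamini-Hochberg adjusted over all genes tested. SE was the log2 fold change over the square root of F, and intervals are 95%. Libraries with the same number deviated together from their group means (r = 0.544 on average over 18 pairs, 0.270 to 0.732). Deviations from a group mean cancel out within the group. The mean r for different numbers (-0.267) therefore follows from the first value and is not separate evidence. No libraries agreed within sampling noise (chi-square per gene of 13.6 to 37.5). At 1 CPM a library holds 15.9 to 27.3 counts, and counting error bounds low genes such as Bok. The script was tested on simulated data.

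Alternatives were DESeq2 (1.42.0) and its size factors, other filters, the newer edgeR fit, a prior count of 2 in place of 0.125, no block, only the groups compared, a fold above 2 and each library or replicate left out. Members and gene lists were chosen with earlier results of these data known. All members are named, and of each list the called genes, at most 3 in each direction by p with DAC+SFN, and all of the other BCL2 family genes. Exon lengths came from GENCODE M21 (GRCm38) and promoters from RefSeq (GRCm38.p6). An item of the caspase list is not reported here.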

Additional observations from a re-analysis of the deposited data

How the results depend on the processing

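The count of family genes called depended on the replicate term and on which libraries entered. Without the replicate term, 0 of the 10 genes were called with SFN and 0 between DAC+SFN and DAC, and with DAC+SFN 3 were (Bcl2l1, Bcl2l2 and Bid), while calls over all genes went from 21 to 0 with DAC, from 1619 to 23 with SFN, from 3683 to 1201 with DAC+SFN, from 1879 to 20 for DAC+SFN against DAC and from 187 to 0 against SFN. Leaving out 1 library or 1 replicate number gave 0 to 1 genes with DAC, 1 to 3 with SFN, 1 to 4 with DAC+SFN, 0 to 2 for DAC+SFN against DAC and 0 to 1 against SFN, while over all genes 0 to 101, 429 to 2105, 1471 to 4199, 245 to 2402 and 0 to 703 were called. Without replicate 1 the gene called with DAC+SFN was Bcl2l1, and without replicate 2 they were Bcl2 and Bcl2l1. Without the low-count filter 1 gene was called with DAC (Bcl2l1), and over all genes 169 were. With only the groups compared in the fit, 1 gene was called with DAC, 1 for DAC+SFN against DAC and 1 against SFN, Bcl2l1 each time, and over all genes 663, 748 and 1267 were. With a fold above 2 required, 0 genes were called in any comparison. DESeq2's Wald test gave the same member counts as edgeR and called 83 genes with DAC and 404 for DAC+SFN against SFN over all genes. Among values that were not called, the following changed sign with the libraries kept. Their log2 fold changes over the fits without 1 library or 1 replicate number ranged with DAC from -0.052 to 0.067 for Mcl1, -0.16 to 0.054 for Bcl2l11, -0.074 to 0.026 for Bad and -0.050 to 0.21 for Bmf, with SFN from -0.081 to 0.058 for Mcl1, -0.14 to 0.091 for Bcl2l11 and -0.027 to 0.089 for Bad, and with DAC+SFN from -0.098 to 0.050 for Mcl1, -0.26 to 0.11 for Bcl2l11 and -0.042 to 0.76 for Bbc3. The interaction ranged from -0.18 to 0.039 for Bcl2, -0.24 to 0.027 for Bcl2l1, -0.097 to 0.075 for Bcl2l2 and -0.0099 to 0.099 for Bid. Mcl1 with DAC+SFN turned from -0.00051 to 0.00044 without the replicate term, a change of sign in a value at 0. The cause of these changes was not tested, apart from the smaller number of samples where libraries were left out.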
